A study of Mus musculus with 9 samples.

Results

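The genes described here are 50 genes of DNA replication and mitosis in cultured mouse pancreatic stellate cells, chosen by gene symbol from 17156 genes in the deposited count table. All 50 symbols were present. They comprise 25 S-phase members, which serve replication origins, the replication fork, nucleotide supply and the entry into S phase, 24 mitotic members, and the G1 cyclin gene Ccnd1. Their levels were not used to choose them, although earlier results of these data were known when they were chosen.

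Pancreatic stellate cells are resident mesenchymal cells of the pancreas that lay down matrix when activated by injury or a tumour. Wild-type C57BL/6J cells were kept for 4 days under 1 of 3 conditions, and total RNA depleted of ribosomal RNA was sequenced from 3 libraries of each. CM-JAKi cells received medium conditioned by pancreatic tumour organoids together with 500 nM AZD1480, an inhibitor of JAK kinases, which relay cytokine signals to STAT transcription factors. CM cells received such conditioned medium without the inhibitor, and MG-CM cells a control medium of DMEM with 5% FBS, which a label also calls Matrigel-conditioned or control medium. Replicate 1 of each condition came from line PSC4, replicate 2 from PSC5-I and replicate 3 from PSC5-II. PSC5-I and PSC5-II are treated here as 1 line, PSC5. In CM and CM-JAKi each number also had a conditioned medium of its own source, while no such source was listed for MG-CM. For CM and CM-JAKi a replicate number therefore marks line and source together. The genotype of the organoids and the serum content of CM were not given in the sources used here.

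Replication origins are licensed in G1, when CDC6 and CDT1 load the MCM2 to MCM7 helicase on DNA, and are fired in S phase, when CDC45 and the GINS complex join it with the help of MCM10. E2F transcription factors switch on many genes for S phase once G1 cyclin and CDK activity has released them from pocket proteins. Genes for mitosis rise later, in G2, under FOXM1, B-MYB and the MuvB complex, which binds promoters at the CHR element, often together with NF-Y at CCAAT boxes. In bulk RNA, a lower level of such a gene can reflect fewer cells in that phase or less RNA per cell, and these cannot be told apart.

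The promoters of the members were searched for those motifs, which were not used to choose them. RefSeq promoters (GRCm38.p6, 250 bases before to 50 after the start) matched 39 of the 50 members, 21 of S phase and 18 of mitosis. No entry was matched for Mcm4, Gins1, Gins2, Ccne2, Ccnd1, Ccna2, Cdc25c, Aurkb, Kif20a, Tpx2 or Foxm1. The E2F letters searched were TTTCGCGC, TTTGGCGC, TTTCCCGC and TTTGCCGC, the CHR letters TTTGAA and the NF-Y box CCAAT, each on both strands, counting a gene once where any of its entries held the letters. The 200 bases before the start are shown for 6 members. Cdc45, Mcm10 and Bub1 are members whose levels differed between conditions, Mcm6 shows the E2F letters of an S-phase gene, and Cdk1 and Cdc20 show the CHR letters of mitotic genes. Capitals mark matches that lie wholly inside the stretch, on either strand, and all 6 genes lie on the minus strand, printed 5′ to 3′ as transcribed.
Cdc45, chr16:18811973-18812172: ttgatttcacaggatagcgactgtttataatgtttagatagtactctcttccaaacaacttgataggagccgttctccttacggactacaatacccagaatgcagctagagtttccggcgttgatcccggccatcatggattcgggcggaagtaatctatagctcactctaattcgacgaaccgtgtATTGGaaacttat
Mcm10, chr2:5012792-5012991: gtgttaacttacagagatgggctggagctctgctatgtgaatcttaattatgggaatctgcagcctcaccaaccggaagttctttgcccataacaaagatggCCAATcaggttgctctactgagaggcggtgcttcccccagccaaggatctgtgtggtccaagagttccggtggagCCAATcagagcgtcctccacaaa
Mcm6, chr1:128359706-128359905: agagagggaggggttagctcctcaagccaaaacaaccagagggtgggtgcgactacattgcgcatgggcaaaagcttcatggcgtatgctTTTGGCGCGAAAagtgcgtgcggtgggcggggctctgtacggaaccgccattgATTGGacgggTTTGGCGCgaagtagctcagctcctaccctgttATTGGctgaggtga
Bub1, chr2:127831860-127832059: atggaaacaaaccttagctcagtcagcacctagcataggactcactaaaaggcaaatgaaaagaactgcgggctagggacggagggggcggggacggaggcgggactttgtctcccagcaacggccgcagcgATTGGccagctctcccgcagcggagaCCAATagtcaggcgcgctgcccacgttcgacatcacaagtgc
Cdk1, chr10:69352913-69353112: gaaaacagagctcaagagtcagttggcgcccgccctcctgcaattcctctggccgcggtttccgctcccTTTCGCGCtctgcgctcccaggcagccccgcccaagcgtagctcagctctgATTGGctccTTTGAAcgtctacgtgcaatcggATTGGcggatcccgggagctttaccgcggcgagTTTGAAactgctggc
Cdc20, chr4:118437344-118437543: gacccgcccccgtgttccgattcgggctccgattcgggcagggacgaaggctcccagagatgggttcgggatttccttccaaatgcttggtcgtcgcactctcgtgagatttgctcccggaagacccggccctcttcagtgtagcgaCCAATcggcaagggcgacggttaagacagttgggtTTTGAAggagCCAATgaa

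The stretch of Mcm6 holds 3 matches of the E2F letters, at positions -110, -106 and -47 counted from the start, of which the first 2 overlap, TTTGGCGC on the strand of the gene and TTTCGCGC on the opposite strand, and NF-Y boxes at -57 and -14. Cdk1 holds E2F letters at -131, CHR letters at -71 and -15, and NF-Y boxes at -80 and -48. Cdc20 holds CHR letters at -18 beside NF-Y boxes at -53 and -8. Mcm10 and Bub1 hold a pair of NF-Y boxes each and Cdc45 holds 1, without E2F letters in this window.

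Among S-phase members 10 of 21 promoters held the E2F letters, against 1 of 18 mitotic promoters, that of Cdk1, and 2.60% of 27025 genes with a promoter entry. The CHR letters stood in 12 of 18 mitotic promoters, 3 of 21 S-phase promoters and 20.2% of all genes. NF-Y boxes were in 15 of 18 mitotic promoters and 14 of 21 S-phase promoters, against 41.1% of all genes. Matches of the CHR letters in mitotic promoters had a median position of -16.5, and 13 of their 16 matches started within the 100 bases before the start site or after it. On the sense strand alone the counts were 7 and 1 for E2F, 2 and 10 for CHR, and 8 and 11 for NF-Y, S-phase members first. A match is a description of letters and not of binding.

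**Figure D1:**
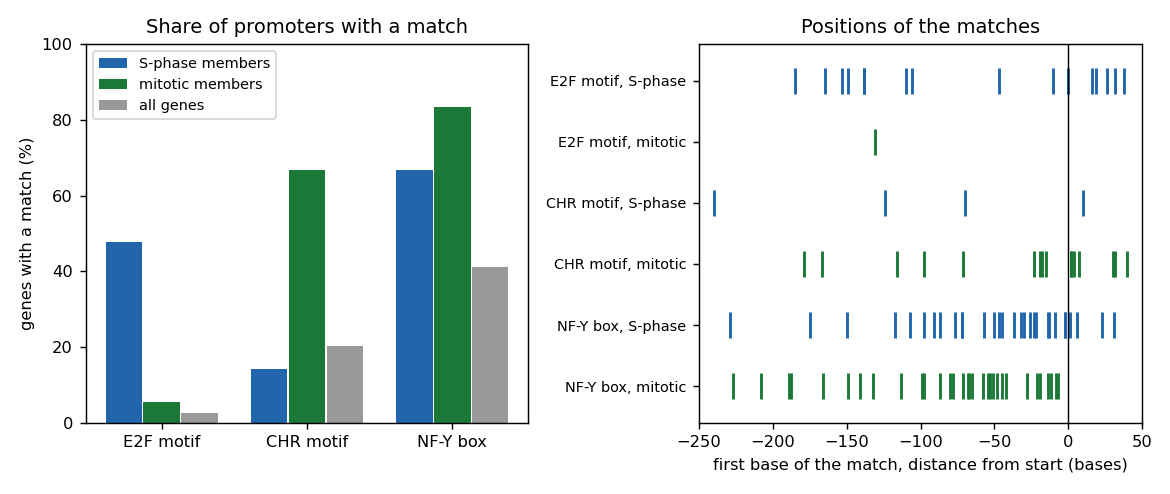
Share of genes with a motif match in the promoter (left, percent of genes with an entry, for S-phase members, mitotic members and all genes) and position of each match in the members (right, bases from the start). E2F letters were found in 10 of 21 S-phase promoters and 1 of 18 mitotic ones, and CHR letters in 3 and 12.

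The libraries held 25625806 to 32089373 counts in CM-JAKi, 30591103 to 32466018 in CM and 26672965 to 29121630 in MG-CM. The lowest count of any member in any library was 334, so counting error was small and all 50 members passed the filter that kept 13613 genes. Levels are given as CPM, counts scaled to library totals with TMM factors. The marker sums that follow were scaled to library totals alone, without TMM factors. Stellate markers summed to 7487 to 8350 CPM in CM-JAKi, 5190 to 7766 in CM and 6343 to 6814 in MG-CM, with all 12 listed genes detected. Of 12 ductal and tumour epithelial markers 10 were in the table, with sums of 30.7 to 45.7, 32.5 to 36.9 and 35.1 to 51.0 CPM in the same order. Epcam, Cdh1 and Cldn4 had 0 to 6 counts in any library, and Krt7, Krt8, Krt18 and Spint2 had 0 to 63. Sox9 had 355 to 762 counts, Muc1 51 to 475 and Krt19 22 to 648, from 22 in CM replicate 1 to 648 in CM-JAKi replicate 3. Of 10 leukocyte markers 7 were in the table, with sums of 16.6 to 33.7, 33.8 to 111 and 23.2 to 36.0 CPM. Most of the leukocyte sum was Cd14, which fibroblasts also express, while Ptprc, which marks all leukocytes, had 0 or 1 count in each library. Of 8 endothelial markers 7 were in the table, with sums of 9.21 to 17.1, 3.31 to 4.93 and 6.52 to 8.97 CPM, and of 10 acinar and endocrine markers 5, with sums of 5.82 to 7.88, 9.09 to 13.3 and 7.48 to 8.36 CPM. The endothelial marker Emcn had 205, 427 and 91 counts in CM-JAKi, 0, 0 and 1 in CM and 27, 27 and 14 in MG-CM. The other endothelial markers had 0 to 75 counts in any library. The part of these other cell types in the results was not tested.

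All together the members took 0.871% to 1.01% of the counts in CM-JAKi libraries, 0.942% to 0.953% in CM and 0.938% to 0.989% in MG-CM, so the groups overlapped. The S-phase members summed to 4926, 4711 and 4402 CPM in CM-JAKi replicates 1, 2 and 3, to 5388, 5242 and 4913 in CM, and to 5069, 5232 and 5131 in MG-CM. In each same-numbered pair the CM-JAKi sum was below that of CM. The mitotic members summed to 4830, 3596 and 4011 CPM in CM-JAKi, to 4735, 4175 and 4965 in CM, and to 4486, 4226 and 4201 in MG-CM. Here replicate 1 of CM-JAKi lay slightly above replicate 1 of CM, while replicates 2 and 3 lay below their CM partners. The mitotic sums thus did not move the same way in all 3 numbered pairs.

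Changes were tested with edgeR's quasi-likelihood F-test over all 9 libraries, with the replicate number as a block, and p-values were adjusted by Benjamini-Hochberg over the 13613 genes. Log2 fold changes are given with approximate standard errors, taken as the absolute log2 fold change divided by the square root of its F statistic. A change was called at an adjusted p under 0.05. The comparisons of CM-JAKi with CM and of CM with MG-CM share the CM libraries, so opposite changes in them are not independent of each other.

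The inhibitor's own effect on cells in tumour medium is addressed by setting CM-JAKi against CM. With the inhibitor, 15 members were lower and 2 higher, and the lower ones were led by the factors that activate the replicative helicase. Of 25 S-phase members 10 were lower and 0 higher, of 24 mitotic members 5 were lower and 1 higher, and Ccnd1 was higher. Among all genes tested 34.2% were called in this comparison, 15.6% lower and 18.6% higher. The 17 of 50 members called are thus a share close to the background, while 15 of the 17 were lower and the calls over all genes ran in both directions, a difference that was not tested. The median log2 fold change was -0.10 over the 50 members and 0.00 over all genes, and 28 of the 50 members changed by less than 0.2, as did 5671 of the 13613 genes tested.

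Helicase activation had 3 of 4 members lower and a median log2 fold change of -0.49, the lowest of the S-phase role groups. Mcm10, which helps start the helicase, had 49.6, 57.8 and 53.0 CPM in CM-JAKi replicates 1, 2 and 3, against 83.4, 84.3 and 81.0 CPM in CM and 57.9, 64.0 and 70.5 CPM in MG-CM. All CM libraries lay above all other libraries, and those of CM-JAKi lay below those of MG-CM. Its log2 fold change in CM-JAKi against CM was -0.64 ± 0.08 (edgeR, adjusted p = 0.00162).

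Cdc45, a subunit of the active helicase, had 76.2, 70.8 and 60.2 CPM in CM-JAKi, against 120.5, 94.7 and 90.0 CPM in CM and 75.2, 72.0 and 69.6 CPM in MG-CM. Again every CM library was higher than every other one, while CM-JAKi and MG-CM overlapped. The log2 fold change against CM was -0.55 ± 0.08 (edgeR, adjusted p = 0.00275). Gins1, a subunit of the GINS complex, had 19.1, 18.6 and 17.8 CPM in CM-JAKi, against 24.1, 24.4 and 25.8 CPM in CM and 19.9, 22.6 and 22.5 CPM in MG-CM. The 3 groups did not overlap, with CM-JAKi lowest. Gins1 fell by 0.42 ± 0.08 on the log2 scale against CM (edgeR, adjusted p = 0.00849), and Gins2 of the same complex changed by -0.13 ± 0.07 without passing (edgeR, adjusted p = 0.195).

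Origin licensing had 3 of 8 members lower. Cdc6, a loader of the MCM helicase, had 67.9, 91.2 and 79.1 CPM in CM-JAKi, against 82.9, 106 and 107 CPM in CM and 68.3, 94.2 and 97.3 CPM in MG-CM. The groups overlapped, with the PSC4 library the lowest of each condition, and within each replicate number CM-JAKi was the lower (log2 fold change -0.31 ± 0.07, edgeR adjusted p = 0.017). The other loader, Cdt1, fell by 0.26 ± 0.08 (edgeR, adjusted p = 0.0441), and of the helicase subunits Mcm3 fell by 0.23 ± 0.07 (edgeR, adjusted p = 0.0455). Mcm5 changed almost as much without passing. It had 331, 301 and 277 CPM in CM-JAKi, 396, 349 and 322 CPM in CM and 322, 316 and 325 CPM in MG-CM (log2 fold change -0.23 ± 0.08, edgeR adjusted p = 0.0653). Mcm2 had 403, 376 and 348 CPM in CM-JAKi, 432, 441 and 373 CPM in CM and 396, 391 and 392 CPM in MG-CM, and its change of -0.14 ± 0.08 did not pass (edgeR, adjusted p = 0.192). The log2 fold changes of Mcm4, Mcm6 and Mcm7 lay between -0.11 and 0.02.

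At the replication fork 2 of 6 members were lower. Pcna, the sliding clamp of the DNA polymerases, had 479.9, 411 and 378 CPM in CM-JAKi, against 551, 518 and 480.2 CPM in CM and 473, 502 and 477 CPM in MG-CM. The CM-JAKi and CM groups came within 1 CPM of each other and did not overlap (log2 fold change -0.29 ± 0.09, edgeR adjusted p = 0.0423). Pola1, the catalytic subunit of the priming polymerase, had 249, 186 and 167 CPM in CM-JAKi, 284, 251 and 219.7 CPM in CM and 257, 232 and 231 CPM in MG-CM. Each CM-JAKi library was the lowest of its replicate number, although the groups overlapped (log2 fold change -0.34 ± 0.09, edgeR adjusted p = 0.0264). Prim1, Rfc3, Fen1 and Lig1, the primase, clamp loader, flap nuclease and ligase genes, changed by -0.14 to 0.08 without passing.

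Of the G1/S regulators, E2f1 and Uhrf1 were lower and the cyclin E genes did not pass. E2f1, an activator of S-phase genes, had 33.1, 27.2 and 25.9 CPM in CM-JAKi, against 39.7, 34.7 and 33.1 CPM in CM and 32.9, 27.7 and 30.2 CPM in MG-CM. The highest CM-JAKi library equalled the lowest of CM to the digits given, and each CM library was above its same-numbered partners (log2 fold change -0.32 ± 0.07, edgeR adjusted p = 0.0138). Uhrf1, which couples replication to maintenance of DNA methylation, had 219, 253 and 265 CPM in CM-JAKi, against 253, 333 and 316 CPM in CM and 264, 342 and 340.5 CPM in MG-CM. It was lowest in CM-JAKi within every replicate number (log2 fold change -0.29 ± 0.07, edgeR adjusted p = 0.0194). Ccne1 had 27.4, 26.4 and 31.2 CPM in CM-JAKi, 28.0, 25.2 and 28.1 CPM in CM and 25.3, 27.9 and 26.7 CPM in MG-CM, with full overlap (log2 fold change 0.06 ± 0.08, edgeR adjusted p = 0.592).

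Of the nucleotide supply genes 0 of 3 were called. Rrm1, the large subunit of ribonucleotide reductase, had 390.4, 422 and 405 CPM in CM-JAKi, 318, 355 and 383 CPM in CM and 382, 478 and 465 CPM in MG-CM. CM-JAKi libraries lay above CM libraries without passing (log2 fold change 0.21 ± 0.08, edgeR adjusted p = 0.0838). Its small subunit Rrm2 had 87.2, 70.5 and 88.9 CPM in CM-JAKi, 99.1, 68.8 and 91.8 CPM in CM and 80.0, 92.1 and 98.1 CPM in MG-CM, without a common direction (log2 fold change -0.07 ± 0.12, edgeR adjusted p = 0.689).

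The 5 mitotic members lower in CM-JAKi were Bub1, Ttk, Aurkb, Top2a and Mki67. Bub1, a kinase of the spindle checkpoint, had 74.7, 68.8 and 73.6 CPM in CM-JAKi, against 94.2, 85.6 and 107 CPM in CM and 74.1, 79.0 and 82.7 CPM in MG-CM. All CM libraries lay above all others (log2 fold change -0.40 ± 0.08, edgeR adjusted p = 0.0076). Ttk, the checkpoint kinase also called MPS1, had 42.3, 31.8 and 36.9 CPM in CM-JAKi, against 51.6, 44.2 and 50.5 CPM in CM and 38.6, 40.0 and 38.6 CPM in MG-CM. It too was highest in the CM libraries without overlap (log2 fold change -0.40 ± 0.09, edgeR adjusted p = 0.0157). Their partners Bub1b, Mad2l1 and Cdc20 changed by -0.06, 0.04 and 0.26 on the log2 scale and did not pass.

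Aurkb, the kinase of the chromosomal passenger complex, had 82.2, 75.4 and 78.8 CPM in CM-JAKi, against 89.9, 89.7 and 99.5 CPM in CM and 77.7, 84.7 and 81.4 CPM in MG-CM. The CM libraries were the highest of all (log2 fold change -0.24 ± 0.07, edgeR adjusted p = 0.0364). Top2a, the topoisomerase that untangles sister chromosomes, had 995, 788 and 831 CPM in CM-JAKi, against 1088, 1022 and 1194 CPM in CM and 972, 954 and 959 CPM in MG-CM. CM-JAKi and CM did not overlap, and CM-JAKi replicate 1 lay closest to CM (log2 fold change -0.34 ± 0.10, edgeR adjusted p = 0.041). Mki67, which codes for the proliferation marker Ki-67, had 758, 476 and 541 CPM in CM-JAKi, against 776, 668 and 823 CPM in CM and 753, 579 and 608 CPM in MG-CM. In PSC4 the conditions lay close together, and in the PSC5 replicates the same-numbered log2 changes were -0.49 and -0.60 (log2 fold change over all replicates -0.38 ± 0.12, edgeR adjusted p = 0.0478).

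The genes of mitotic entry had 0 of 6 members called. Ccnb1, the cyclin that drives entry into mitosis, had 213, 158 and 189 CPM in CM-JAKi, 209.9, 154 and 207 CPM in CM and 177, 187 and 179 CPM in MG-CM, with full overlap (log2 fold change -0.02 ± 0.11, edgeR adjusted p = 0.888). Its kinase Cdk1 had 231, 194 and 215 CPM in CM-JAKi, 250.4, 193 and 242 CPM in CM and 215, 214 and 225 CPM in MG-CM (log2 fold change -0.10 ± 0.08, edgeR adjusted p = 0.396). Foxm1, a transcription factor of mitotic genes, had 135, 106 and 111 CPM in CM-JAKi, 125, 129 and 143 CPM in CM and 143, 117 and 124 CPM in MG-CM (log2 fold change -0.18 ± 0.10, edgeR adjusted p = 0.185). None of these 3 genes separated the groups.

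The increases in CM-JAKi were Kif23 and Ccnd1. Kif23, a kinesin of the central spindle in cell division, had 96.1, 67.0 and 82.1 CPM in CM-JAKi, against 69.7, 56.1 and 66.2 CPM in CM and 81.4, 80.9 and 72.1 CPM in MG-CM. The groups overlapped, while each CM library was the lowest of its number (log2 fold change 0.35 ± 0.10, edgeR adjusted p = 0.0394). Ccnd1, the G1 cyclin through which growth signals reach the cell cycle, had 55.4, 122 and 220.0 CPM in CM-JAKi, against 11.6, 54.9 and 91.9 CPM in CM and 49.9, 119.5 and 149 CPM in MG-CM. PSC4 was the lowest in every condition, and within each number CM-JAKi was the highest and CM the lowest. The log2 fold change against CM was 1.50 ± 0.25 (edgeR, adjusted p = 0.00579), the largest of any member and opposite to that of most S-phase members.

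**Figure D2:**
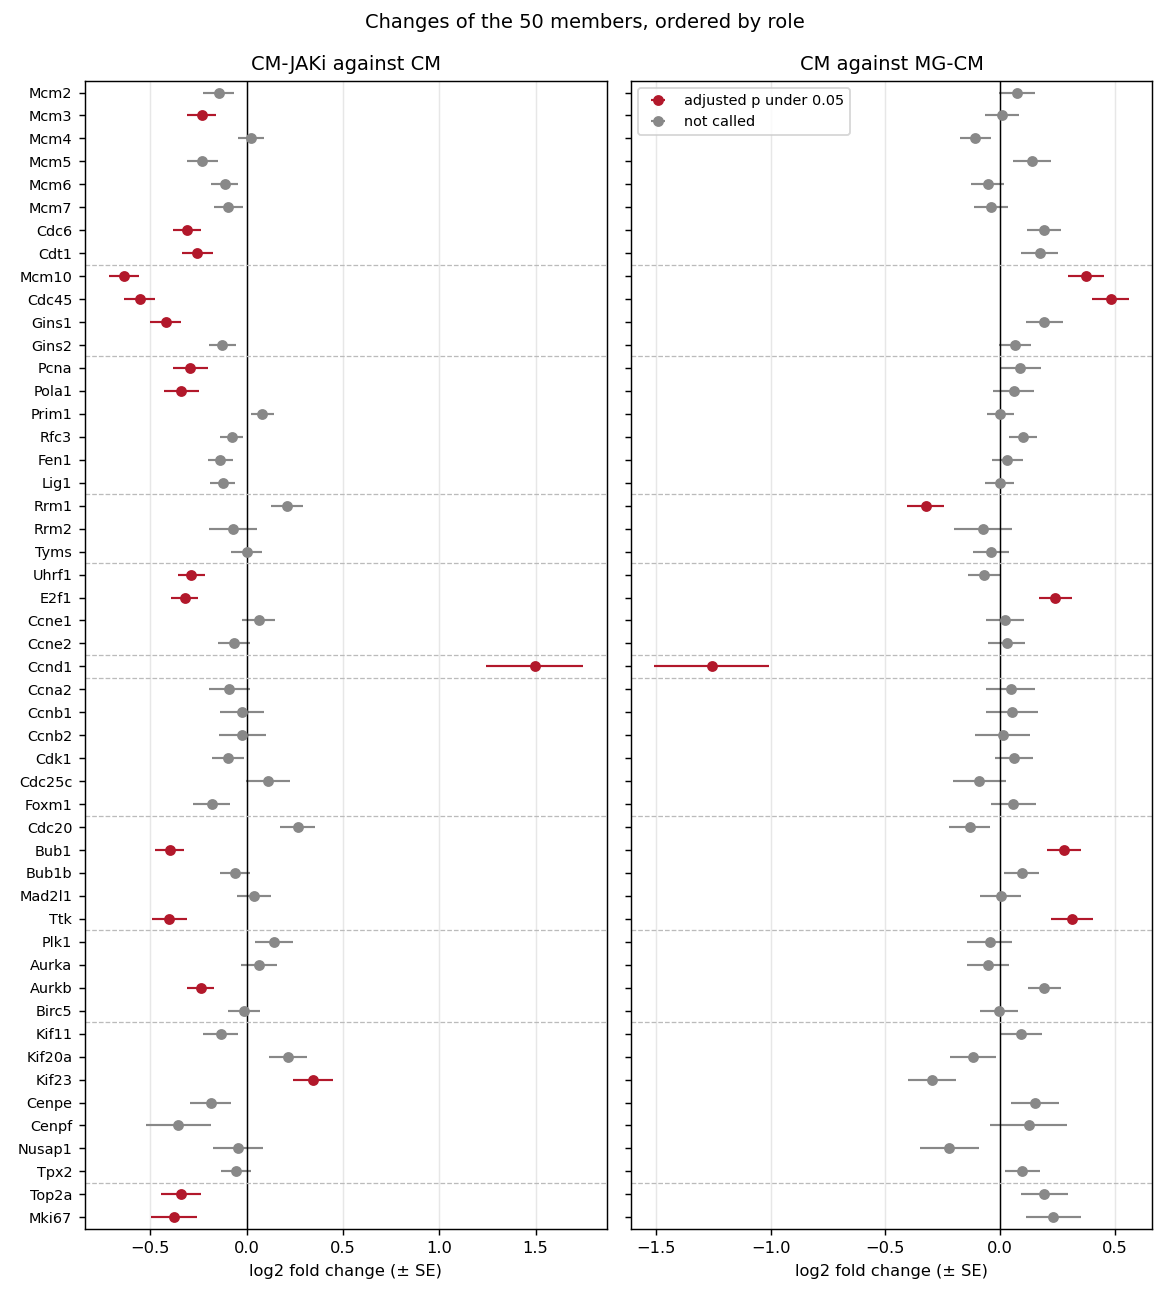
Log2 fold change of each of the 50 members (points, with standard errors as bars) in CM-JAKi against CM (left) and CM against MG-CM (right), ordered by role with dashed lines between role groups. Red marks an adjusted p under 0.05, which holds for 15 members to the left of 0 and 2 to its right in the left panel, and for 2 and 5 in the right panel.

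**Figure D3:**
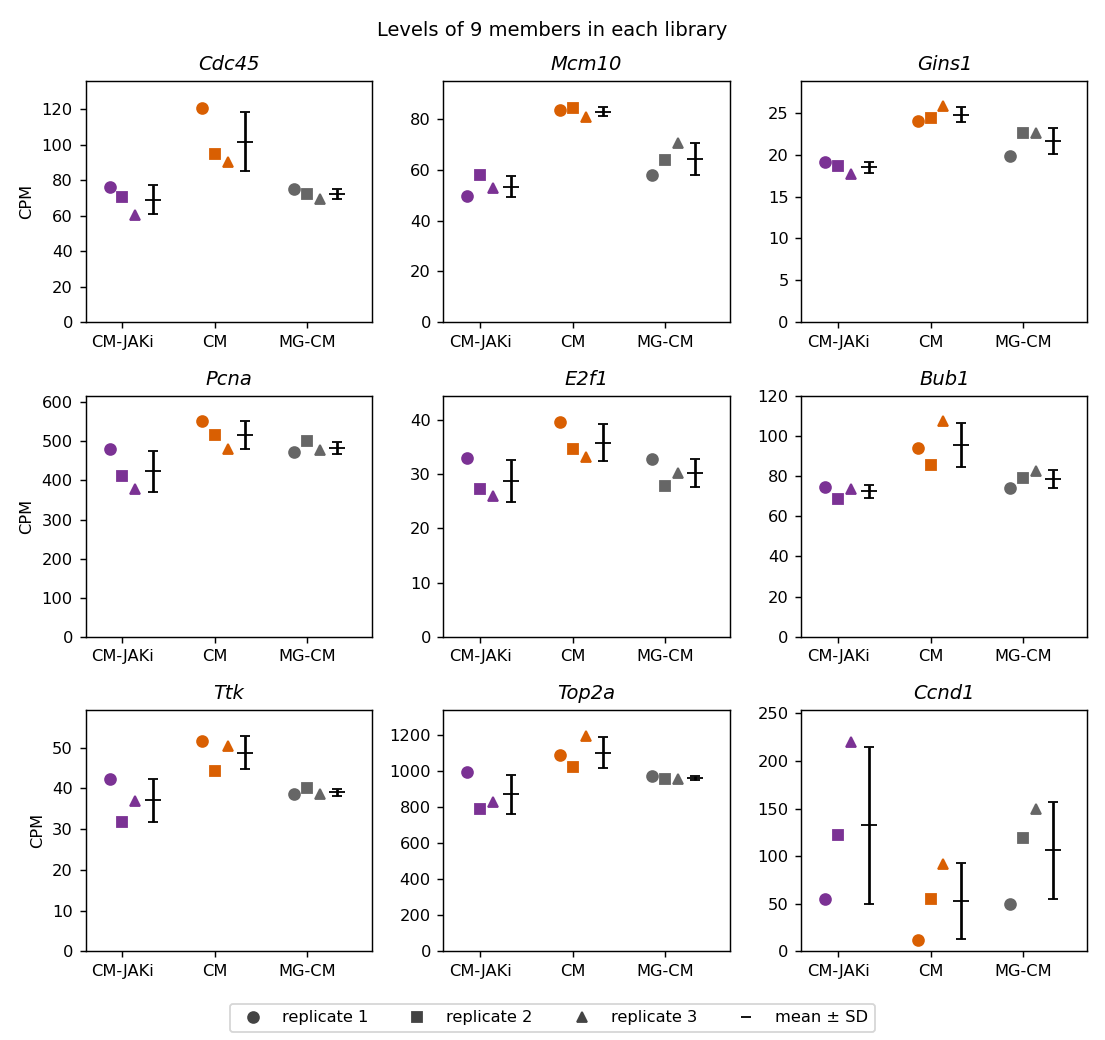
CPM of 9 members in each library (symbols by replicate, each axis starting at 0), with the group mean and SD as bars. CM libraries stand above the others for Mcm10, Cdc45, Gins1, Bub1, Ttk and Top2a, while for Ccnd1 the CM library is the lowest of each replicate number.

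These calls depended on how lines were handled. Without the replicate block 5 members were lower (Mcm10, Cdc45, Gins1, Bub1 and Ttk) and 0 higher, while 19% of all genes were called. Each of the 17 calls had the same direction in all 3 numbered pairs. With library size alone as the scaling, 6 members were lower and 4 higher, and the median of all genes stood at 0.0997 on the log2 scale. The share of all genes called under that scaling is not given here, so these counts cannot be read against a background. Leaving out single libraries kept the calls of Mcm10, Cdc45, Gins1, Bub1 and Ccnd1 in all 9 cases. With all libraries of replicate 2 or of replicate 3 left out, Gins1 (edgeR, adjusted p = 0.083 and 0.0855) and Bub1 (edgeR, adjusted p = 0.0504 and 0.0834) lost theirs, while Mcm10, Cdc45 and Ccnd1 kept theirs without each replicate number. Cdc6 lost its call without CM-JAKi or CM replicate 3, Ttk without CM-JAKi replicate 2 or 3, and E2f1 and Uhrf1 each without CM-JAKi replicate 2 or 3 or CM replicate 2. Pola1 lost it without replicate 2 or 3 of CM-JAKi or CM, and Aurkb without the same or MG-CM replicate 3. Pcna lost it without the same 4 or MG-CM replicate 2 or 3, and Top2a and Mki67 without the same 4 or any MG-CM library. Kif23 lost it without CM-JAKi replicate 1 or 3, any CM library or MG-CM replicate 3. Cdt1 kept its call only without CM replicate 3 or MG-CM replicate 2, and Mcm3 only without MG-CM replicate 1.

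The effect of the tumour medium is addressed by setting CM against the control medium MG-CM. Of the 50 members 5 were higher and 2 lower, beside 24.4% of all genes called, 11.6% higher and 12.8% lower, and their share lay below that background. The S-phase members had 3 higher (Cdc45, Mcm10 and E2f1) and 1 lower (Rrm1), the mitotic members 2 higher (Bub1 and Ttk), and Ccnd1 was lower. Of the 50 members 40 changed by less than 0.2 on the log2 scale, as did 6474 of the 13613 genes tested.

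Cdc45 averaged 102 ± 16.4 CPM in CM and 72.3 ± 2.81 CPM in MG-CM (SD, n = 3 each), without overlap, and rose by 0.48 ± 0.08 (edgeR, adjusted p = 0.007). Mcm10 averaged 82.9 ± 1.71 CPM in CM and 64.2 ± 6.30 CPM in MG-CM and rose by 0.37 ± 0.08 (edgeR, adjusted p = 0.0158). Both were higher in 3 of 3 numbered pairs, by 0.37 to 0.68 for Cdc45 and 0.20 to 0.53 for Mcm10. E2f1 rose by 0.24 ± 0.07 (edgeR, adjusted p = 0.047), and its groups did not overlap. Gins1 was also higher in CM without overlap, and its change of 0.19 ± 0.08 did not pass (edgeR, adjusted p = 0.123).

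Among mitotic members Ttk averaged 48.7 ± 4.00 CPM in CM and 39.1 ± 0.835 CPM in MG-CM and rose by 0.31 ± 0.09 (edgeR, adjusted p = 0.046). Bub1 averaged 95.7 ± 10.9 CPM in CM and 78.6 ± 4.31 CPM in MG-CM and rose by 0.28 ± 0.08 (edgeR, adjusted p = 0.0346). In both the smallest difference was in replicate 2, 0.14 for Ttk and 0.12 for Bub1. Top2a and Mki67 changed by 0.19 ± 0.10 and 0.23 ± 0.12 and did not pass (edgeR, adjusted p = 0.213 and 0.197), and Ccnb1 and Cdk1 changed by 0.05 and 0.06.

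The 2 decreases in CM were Rrm1 and Ccnd1. Rrm1 averaged 352 ± 32.9 CPM in CM and 442 ± 51.9 CPM in MG-CM, lower in 3 of 3 pairs by 0.27 to 0.43, and fell by 0.32 ± 0.08 (edgeR, adjusted p = 0.0278). Ccnd1 averaged 52.8 ± 40.2 CPM in CM and 106 ± 50.9 CPM in MG-CM and fell by 1.26 ± 0.25 (edgeR, adjusted p = 0.015). Its numbered pairs differed by -2.10, -1.12 and -0.70, so PSC4 had the largest decrease. The groups overlapped, with the PSC4 library the lowest of each condition. Without the replicate block its adjusted p was 0.413.

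Without the block only Cdc45 and Mcm10 were called (2 higher, 0 lower, with 10.2% of all genes called). With library size alone 2 members were higher and 3 lower, the added one being Kif23, again without the share of all genes beside them. Of the 7 calls, that of Cdc45 held without each single library. Mcm10 and Ccnd1 lost theirs without MG-CM replicate 1 or 2, and Rrm1 without any replicate 2 library or MG-CM replicate 3. Bub1 lost its call without CM-JAKi replicate 2, CM replicate 1 or 3 or any MG-CM library. Ttk kept it only without CM-JAKi replicate 1 or MG-CM replicate 2, and E2f1 lost it in all 9 cases. Without all of replicate 2, 0 members were called by edgeR, and 480 genes in all.

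CM-JAKi was set against MG-CM to ask how far stellate cells in tumour medium with the inhibitor differ from cells in control medium. A single member was called, Uhrf1, lower in CM-JAKi, where 4.25% of all genes were called, 1.85% higher and 2.4% lower. Uhrf1 averaged 246 ± 23.6 CPM in CM-JAKi and 315 ± 44.6 CPM in MG-CM (SD, n = 3 each), lower in 3 of 3 pairs by 0.27 to 0.43 (log2 fold change -0.35 ± 0.07, edgeR adjusted p = 0.0388). Its groups overlapped, and the call was lost in 8 of 9 cases with a single library left out, all but that without CM replicate 1, and without the block (edgeR, adjusted p = 0.4). With library size alone it was also lost.

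Of the 50 members 41 differed by less than 0.2 on the log2 scale, as did 8855 of 13613 genes. Mcm10 and Gins1 were lower in CM-JAKi than in every MG-CM library, with changes of -0.26 ± 0.08 and -0.23 ± 0.08 that did not pass (edgeR, adjusted p = 0.129 and 0.197). Cdc45 and Bub1 changed by -0.07 ± 0.08 and -0.12 ± 0.08, with overlap. Ccnd1 averaged 132 ± 82.8 CPM in CM-JAKi and 106 ± 50.9 CPM in MG-CM, a log2 fold change of 0.24 ± 0.24 (edgeR, adjusted p = 0.663). A change that did not pass is not shown to be absent.

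S-phase and mitotic members were compared by their median log2 fold change, without a test. In CM-JAKi against CM the S-phase median was -0.14 and the mitotic one -0.06. The numbered pairs gave -0.18, -0.17 and -0.13 for S phase and 0.08, -0.09 and -0.19 for mitosis. The S-phase median was below 0 in each pair, with 10 of the 25 members called lower and 5 on the positive side of 0 in the fit, whereas the mitotic median differed in sign between PSC4 and both PSC5 replicates. The difference of S phase minus mitosis was -0.08 and ran from -0.27 in replicate 1 to 0.07 in replicate 3, so it did not keep its sign over the pairs.

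In CM against MG-CM the medians were 0.03 for S phase and 0.06 for mitosis, with differences of 0.07, 0.18 and -0.20 in the 3 pairs. In CM-JAKi against MG-CM they were -0.10 and -0.03, with differences of -0.14, 0.11 and -0.20. The all-gene median was 0.01 in CM against MG-CM and 0.00 in each of the other comparisons. With library size alone the S-phase median became -0.04 in CM-JAKi against CM and -0.04 in CM against MG-CM, and the mitotic one 0.04 and -0.02, where the all-gene medians were 0.0997 and -0.0656. This scaling shifts all genes of a comparison by nearly the same amount.

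**Figure D4:**
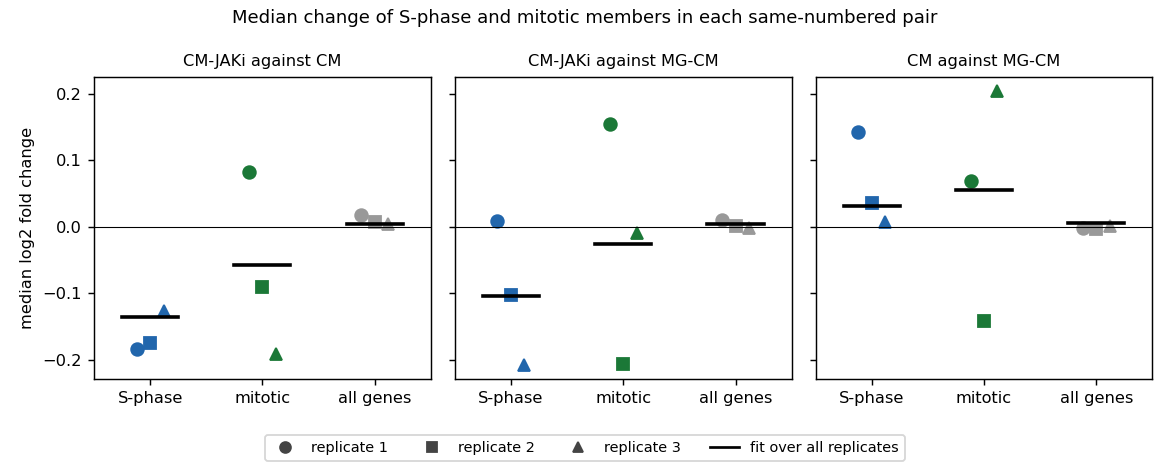
Median log2 fold change of S-phase members, mitotic members and all genes tested in each same-numbered pair (symbols) and in the fit over all replicates (bars), for the 3 comparisons. In CM-JAKi against CM the S-phase medians lie between -0.18 and -0.13, and the mitotic ones between -0.19 and 0.08.

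Calls were also counted by the letters in the promoter. In CM-JAKi against CM, 5 of 10 S-phase members with E2F letters and 4 of 11 without were lower, with medians of -0.23 and -0.14. Among all genes 15.6% were lower and 18.6% higher in that comparison. In CM against MG-CM, 0 of 10 with E2F letters and 3 of 11 without were higher, the 3 being Cdc45, Mcm10 and E2f1. Lower were 0 of those with the letters and 1 of those without, Rrm1. Among all genes 11.6% were higher and 12.8% lower there. Differences between members with and without the letters were not tested. Of the mitotic members with CHR letters 3 of 12 were lower and 1 higher in CM-JAKi against CM, and of those without 1 of 6 was lower.

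Levels were also compared between the lines. PSC4 against PSC5, tested over all conditions with edgeR and a term for group, gave 5 members higher (Pola1, E2f1, Kif11, Cenpf and Nusap1) and 5 lower (Cdc6, Prim1, Uhrf1, Ccnd1 and Birc5), where 21% of all genes were called, 10.5% in each direction. The shares of the 50 members called were thus close to those of all genes. Ccnd1 averaged 39.0 ± 23.9 CPM in PSC4 (n = 3) and 126 ± 55.9 CPM in PSC5 (n = 6), a log2 fold change of -1.85 ± 0.31 (edgeR, adjusted p = 0.00807). Cenpf, a kinetochore protein, averaged 178 ± 14.3 CPM in PSC4 and 116 ± 23.6 CPM in PSC5 (log2 fold change 0.65 ± 0.14, edgeR adjusted p = 0.0147). The 3 PSC4 libraries are 1 replicate number under 3 conditions and the 6 PSC5 libraries are 2 such numbers. Libraries counted in n thus share a line and, for CM and CM-JAKi, a source of medium. The fit does not take this into account, and these p-values are too small. Line and source of medium cannot be told apart in these values. Without CM-JAKi replicate 1, 0 members were higher in PSC4 and 3 lower (edgeR), and without MG-CM replicate 1 they were 2 and 3. Members higher in PSC4 numbered 8 without CM replicate 1, 2 without CM-JAKi replicate 2 or 3, and 3 without MG-CM replicate 2 or 3. The shares of all genes called in these fits are not given here, so these counts cannot be read against a background.

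A test of whether the change itself differs between PSC4 and PSC5 called 0 members in each of the 3 comparisons. Of all genes it called 0.228% in CM against MG-CM, 0.367% in CM-JAKi against CM and 0% where CM-JAKi was set against MG-CM. With no adjustment 2, 3 and 2 members had a p under 0.05 in this order (edgeR), all of them among Cenpf, Nusap1 and Foxm1. Cenpf had 189.5, 88.5 and 91.3 CPM in CM-JAKi, against 162, 149 and 133 CPM in CM and 183, 123 and 113 CPM in MG-CM. It was thus higher in CM-JAKi than in CM in PSC4 and lower in both PSC5 replicates, a difference, PSC4 minus PSC5, of 0.87 ± 0.15 on the log2 scale that did not pass over all genes (edgeR, adjusted p = 0.103). PSC4 has 1 library per condition, so this test rests on few data. It had no term for the replicate number, so the pairing of libraries within PSC5-I and within PSC5-II was not used.

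Further genes of the same pathways, listed from general knowledge, were read beside the members. In CM-JAKi against CM 15 of 45 other replication genes were lower and 2 higher, and 10 of 57 other mitotic genes were lower and 2 higher, of 60 listed, beside 15.6% of all genes lower and 18.6% higher. The share of other mitotic genes that were lower was near that background. In CM against MG-CM the counts were 7 higher and 1 lower for replication and 4 higher and 1 lower for mitosis, beside 11.6% of all genes higher and 12.8% lower. Hells, a chromatin remodeller active in S phase, had 226, 174 and 163 CPM in CM-JAKi, against 330.1, 275 and 249 CPM in CM and 224, 187 and 197 CPM in MG-CM. All CM libraries were above all others (log2 fold change -0.61 ± 0.08 in CM-JAKi against CM, edgeR adjusted p = 0.00174, and 0.48 ± 0.08 in CM against MG-CM, edgeR adjusted p = 0.00631).

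Plk4, the kinase of centriole duplication, averaged 81.7 ± 2.52 CPM in CM-JAKi, 113 ± 7.69 CPM in CM and 86.6 ± 5.99 CPM in MG-CM (SD, n = 3 each, log2 fold change -0.47 ± 0.08 in CM-JAKi against CM, edgeR adjusted p = 0.00426). Rpa1, the large subunit of the single-strand binding protein, went the other way. It averaged 310.3 ± 58.6 CPM in CM-JAKi, 228 ± 48.8 CPM in CM and 277 ± 49.5 CPM in MG-CM, and was higher in CM-JAKi than in CM by 0.45 ± 0.06 (edgeR, adjusted p = 0.00272).

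The list of cell cycle inhibitors and pocket protein genes had 8 of 26 higher and 6 lower in CM-JAKi against CM, and 2 higher and 8 lower in CM against MG-CM, to be read against the same shares of all genes. The list also held genes of other kinds, among them Ccng1 and Mybl2, so its counts are not those of inhibitors alone. Cdkn1b, which codes for the CDK inhibitor p27, had 147, 140.1 and 129 CPM in CM-JAKi, against 80.9, 91.9 and 103 CPM in CM and 149.7, 143 and 126 CPM in MG-CM. All CM libraries lay below all others (log2 fold change 0.59 ± 0.11 in CM-JAKi against CM, edgeR adjusted p = 0.00796, and -0.60 ± 0.11 in CM against MG-CM, edgeR adjusted p = 0.0113). Cdkn2a, which codes for p16 and p19ARF, had 286, 329 and 301 CPM in CM-JAKi, against 205, 259 and 263 CPM in CM and 317, 334 and 317 CPM in MG-CM. It too was lowest in CM without overlap, with changes of 0.34 ± 0.09 in CM-JAKi against CM and -0.42 ± 0.09 in CM against MG-CM (edgeR, adjusted p = 0.0218 and 0.0145).

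Ccng1, a p53-induced cyclin, had 181, 492 and 581 CPM in CM-JAKi, against 60.3, 139.9 and 144 CPM in CM and 136, 405 and 292 CPM in MG-CM. Within each number CM was the lowest and CM-JAKi the highest (log2 fold change 1.81 ± 0.14 in CM-JAKi against CM, edgeR adjusted p = 0.000356). Cdkn1a, which codes for the CDK inhibitor p21, did not pass in any comparison. It had 38.3, 76.8 and 82.4 CPM in CM-JAKi, 48.7, 40.9 and 25.4 CPM in CM and 30.7, 72.0 and 43.7 CPM in MG-CM, so CM was the highest of the 3 conditions in PSC4 and the lowest in both PSC5 replicates. Mybl2, which codes for B-MYB, averaged 39.9 ± 4.87 CPM in CM-JAKi and 55.5 ± 1.55 CPM in CM (SD, n = 3 each, log2 fold change -0.48 ± 0.09, edgeR adjusted p = 0.00638).

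Growth-signal genes such as Myc and Junb act upstream of the G1 cyclins. Of 19 cyclin, kinase and growth-signal genes listed, 7 were lower and 1 higher in CM-JAKi against CM, and 6 were higher and 1 lower in CM against MG-CM, beside those same shares of all genes. Myc had 26.1, 31.9 and 39.3 CPM in CM-JAKi, against 90.7, 71.9 and 59.0 CPM in CM and 43.4, 42.4 and 52.3 CPM in MG-CM. The 3 groups did not overlap, with CM highest and CM-JAKi lowest (log2 fold change -1.20 ± 0.21 in CM-JAKi against CM, edgeR adjusted p = 0.00623, and 0.69 ± 0.20 in CM against MG-CM, edgeR adjusted p = 0.0491). Junb, an AP-1 subunit, averaged 93.4 ± 10.8 CPM in CM-JAKi and 256 ± 102 CPM in CM (SD, n = 3 each, log2 fold change -1.40 ± 0.13, edgeR adjusted p = 0.000621).

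**Figure D5:**
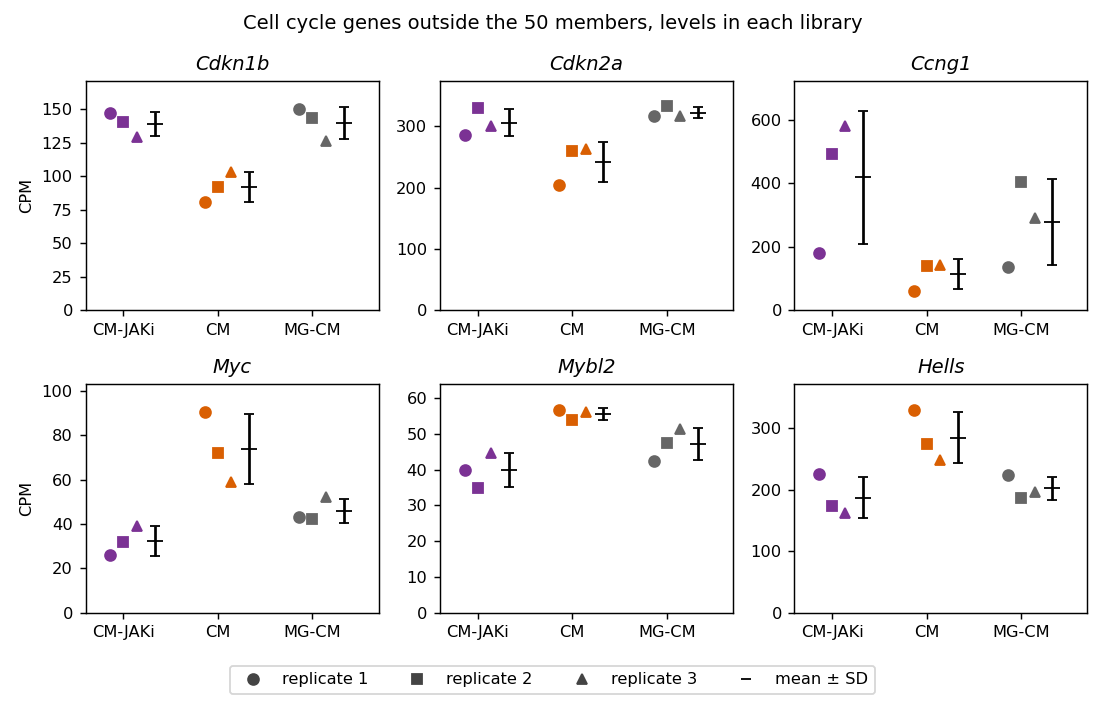
CPM of 6 cell cycle genes outside the 50 members in each library (symbols by replicate, each axis starting at 0), with the group mean and SD as bars. CM libraries are the lowest for Cdkn1b and Cdkn2a and the highest for Myc, Mybl2 and Hells, while for Ccng1 the CM library is the lowest of each replicate number.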

How the data were processed

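Stranded total RNA libraries were made with a TruSeq kit after ribosomal RNA depletion and sequenced on a NextSeq instrument, per the labels' protocols. Named without any role in the submitters' processing notes are the aligner STAR 2.5.1b, the quantifier RSEM 1.2.29, DESeq2 and the builds NCBIM37 and mm9. The deposited table holds whole numbers that are not scaled between libraries, and since RSEM is named they were taken to be its estimated counts (expected counts), rounded by the authors. No coordinates are given for the counted genes, because the reference used here is of a later build. RefSeq promoters are of GRCm38.p6.

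The analysis used edgeR 4.0.16 under R 4.3.3 (filterByExpr with a minimum count of 10 and a minimum total of 15, TMM scaling, robust quasi-likelihood F-test), in 1 fit of all 9 libraries with terms for group and replicate number, which leaves 4 residual degrees of freedom. The block was used because the choice of genes asked for it and a number marks a shared line and, for CM and CM-JAKi, a shared source of medium, per the labels. After group means were removed, same-numbered libraries correlated across genes at 0.291 to 0.680 (9 pairs), others at -0.536 to 0.279 (18 pairs). Replicates of a group differed by 15.3 to 109 in chi-square per degree of freedom, so none was a duplicate. The script was tested on simulated counts. Alternatives were a fit without the block, a line term, other scalings, no filter, DESeq2 1.42.0 with the block, and left-out libraries.

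The members and lists were chosen with earlier results of these data known, so no p is given over a list. Values in every library are given for called members, at most the 14 with the smallest p, and for Mki67, Top2a, Ccnb1, Cdk1, Foxm1, Mcm2, Mcm5, Pcna, Rrm2, Ccne1 and Ccnd1 whatever their result, to which Cenpf was added after its values were seen. Context genes come from up to 3 called genes per list and comparison with the smallest p, with Cdkn1a, Cdkn1b, Cdkn2a, Myc and Mybl2 whatever their result. Single values of some context genes are not reported here.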

Additional observations from a re-analysis of the deposited data

How the results depend on the processing

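With 3 libraries per condition and 4 residual degrees of freedom, many calls lay near the threshold. Without the replicate block the members called were 2 higher and 0 lower in CM against MG-CM, 0 and 5 in CM-JAKi against CM, and 0 and 0 in CM-JAKi against MG-CM, among 1394, 2585 and 137 genes in all, so every count above 0 was smaller without it. With library size alone the members called were 2 higher in CM against MG-CM, 4 higher and 6 lower in CM-JAKi against CM, and 0 lower in CM-JAKi against MG-CM. The shares of all genes called under that scaling are not given here. The S-phase medians were then -0.0401 in CM against MG-CM and -0.0393 in CM-JAKi against CM. DESeq2 with the block called 1037 genes in CM-JAKi against MG-CM, and 264 genes had no adjusted p there. On the sense strand alone 8 S-phase promoters held an NF-Y box.

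Leaving out a library or a whole replicate number gave 0 to 4 members higher, 0 to 2 lower and 480 to 2969 genes in CM against MG-CM. It gave 1 to 3 members higher, 2 to 17 lower and 1432 to 4672 genes in CM-JAKi against CM, and 0 to 5 lower and 21 to 1321 genes in CM-JAKi against MG-CM. Between lines it gave 0 to 8 members higher and 3 to 5 lower in PSC4, without the share of all genes beside them. A line term, DESeq2 size factors and no low-count filter left each of these counts within 1.5 times of its value.

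Some small changes that had not passed turned sign. Library size alone moves the median of all genes to -0.0656 in CM against MG-CM and 0.0997 in CM-JAKi against CM, and with this common shift these were Pola1 (-0.0112), Ccne1 (-0.0500), Ccnb1 (-0.0185), Cdk1 (-0.0122) and Foxm1 (-0.0126) in CM against MG-CM, and Rrm2 (0.0272) and Ccnb1 (0.0732) in CM-JAKi against CM. With libraries left out, the cases read were that of the largest adjusted p and that of the smallest change in the direction of the full fit. The cause was not tested, and the lower value is printed first, whichever case gave it. Where the values of a gene differ in sign from each other, the value with the sign of the full fit did not turn. In CM against MG-CM these cases gave 0.0399 and 0.106 for Rrm2, -0.0104 for Pola1, and -0.0428 and -0.0029 for Ccne1. They also gave -0.0458 and 0.00148 for Ccnb1, -0.0241 and -0.00821 for Cdk1, and -0.0261 and 0.00979 for Foxm1. In CM-JAKi against CM they gave -0.00183 and 0.0526 for Rrm2, -0.00265 for Ccne1, and 0.00518 and 0.0326 for Ccnb1. In CM-JAKi against MG-CM they gave -0.0102 and 0.0070 for Rrm2, -0.0874 and 0.00623 for Ccnb1, -0.0225 and 0.0377 for Cdk1, -0.0103 and 0.0403 for Ttk, -0.0118 and 0.0230 for Aurkb, and -0.0456 and -0.0161 for Kif23.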
